A study of Mus musculus with 6 samples.

Results

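The interleukin-6 (IL-6) family and the feedback inhibitors of its signalling pathway were followed in muscle satellite cells, the resident stem cells of skeletal muscle, before and after growth in culture. The 10 genes were 2 ligands (Il6, Lif), 3 receptor chains (Il6st, Osmr, Lifr), the kinase Jak2, the transcription factor Stat3 and 3 suppressors of cytokine signalling (Socs1, Socs2, Socs3). They were chosen by name, with earlier results of these data known. For each, the brightest of the probe sets annotated to that gene alone was kept. All 10 were measured, among 19938 genes in all. Cells sorted from hind-limb, abdominal and triceps muscle of 2-month-old C57BL/6J mice as beta-1 integrin and CXCR4 positive, and negative for CD45, CD31, CD11b, Ter119 and Sca1, made up the fresh group (3 arrays). The cultured group (3 arrays) was the same kind of sorted cell after 5 days on collagen and laminin, in F10 medium with 20% horse serum and basic fibroblast growth factor added each day at 5 ng/ml. Neither group carried a genetic change or a drug treatment. The labels give 3 mice for the fresh cells, tie no array to a mouse and name no batch, so the tests see only the scatter among these 6 samples, some of which can be technical.

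Cytokines of the IL-6 family signal through receptor complexes that share the gp130 chain, encoded by Il6st. Ligand binding brings together Janus kinases (JAKs), which phosphorylate STAT3, and STAT3 then enters the nucleus and switches on target genes. One of these is Socs3, whose product binds gp130 and the kinase and shuts the signal down. In muscle, IL-6 and LIF are made by fibres and resident cells after exercise or injury, and STAT3 is known to act in the proliferation and differentiation of satellite cells.

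Among the 10 genes, 5 fell in the cultured cells and none rose: Il6, Il6st, Osmr, Stat3 and Socs3, by 2.78-fold to 6.58-fold on the deposited scale. The test was limma's moderated test with Benjamini-Hochberg adjustment over all genes, at an adjusted p of 0.05. Of all genes tested, 3.37% passed as lower and 0.953% as higher. At an unadjusted p of 0.05, 8 of the 10 were lower and none was higher, against 9.06% of all genes lower and 8.58% higher at that cutoff. The median log2 fold change of the 10 genes was -1.20, against 0.04 for all genes. For 7 of the 10, every cultured value lay below every fresh value, as it did for 10.3% of all genes. Because the 10 genes were chosen with earlier results known, these shares describe them and do not test the set. Levels below are log2 expression units, means are of 3 arrays (n = 3) with the SD, and log2 fold changes are cultured minus fresh with the standard error (SE). The background level, taken from 1194 olfactory and vomeronasal receptor genes as the 95th percentile of their group means, was 3.16 in fresh and 3.23 in cultured cells.

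**Figure D1:**
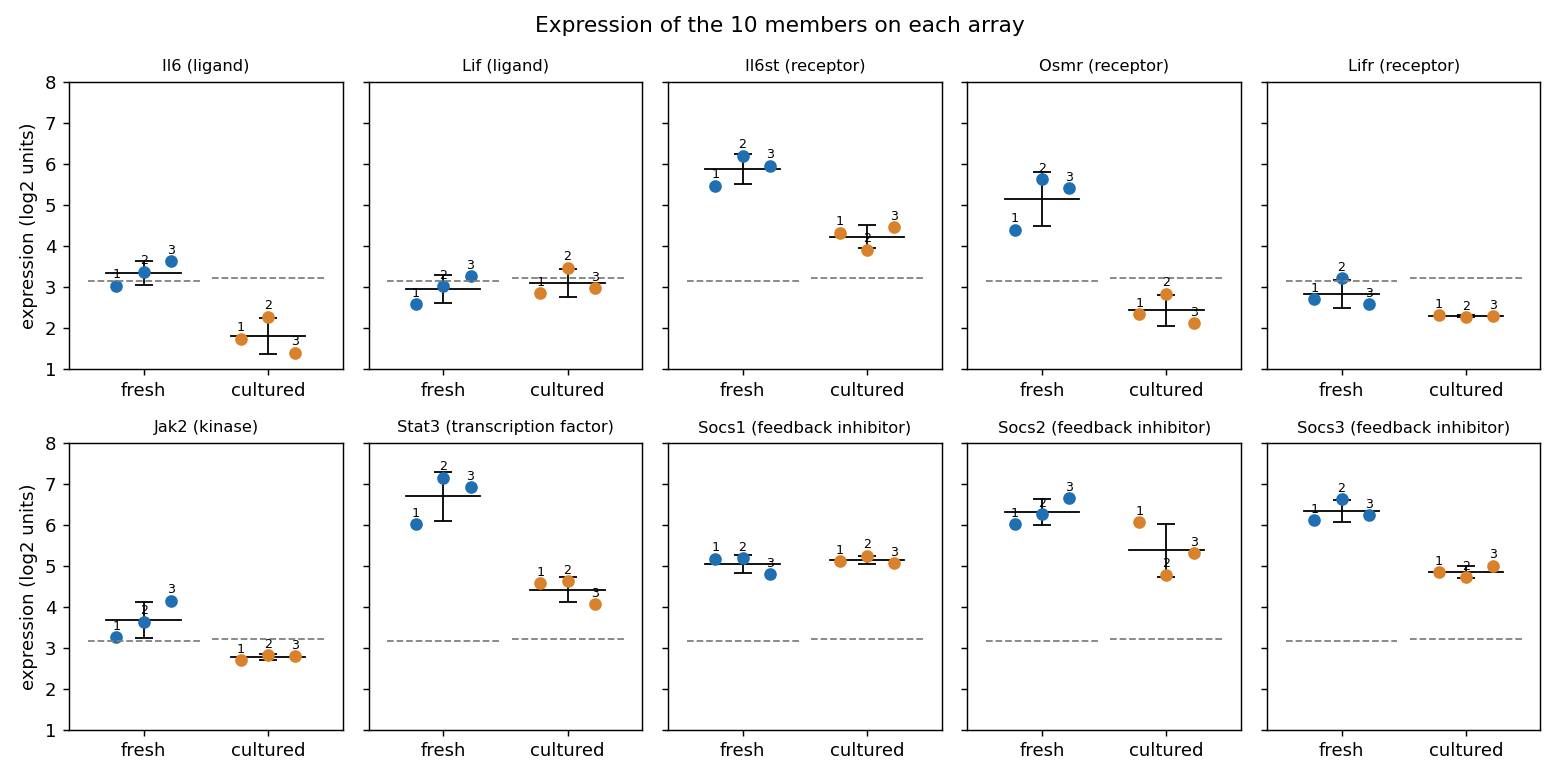
Log2 expression of the 10 genes on each array (y axis), with fresh arrays in blue and cultured arrays in orange, numbered by replicate; black lines are group means with the SD as bars, and dashed grey lines the background level of 3.16 (fresh) and 3.23 (cultured). The fresh and cultured points of Il6, Il6st, Osmr, Lifr, Jak2, Stat3 and Socs3 do not overlap, while those of Lif, Socs1 and Socs2 do.

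The regulatory DNA next to these genes was searched because the title of the series names Fos, which forms the transcription factor AP-1 with JUN proteins. STAT3, which acts on Socs3, was the other reason. The 3 genes shown are those whose window held a match, so they were picked by the outcome of the search. The sequences are the 250 bases before the gene's start in RefSeq on GRCm38.p6, read on the strand of the gene. The letters searched were TTCNNNGAA for STAT factors and TGANTCA for AP-1, which read the same on both strands and did not overlap each other in these windows. RefSeq windows matched 9 of the 10 genes (all but Socs2). Capitals mark a match.
Il6, chr5:30012864-30013113, plus strand, AP-1 letters: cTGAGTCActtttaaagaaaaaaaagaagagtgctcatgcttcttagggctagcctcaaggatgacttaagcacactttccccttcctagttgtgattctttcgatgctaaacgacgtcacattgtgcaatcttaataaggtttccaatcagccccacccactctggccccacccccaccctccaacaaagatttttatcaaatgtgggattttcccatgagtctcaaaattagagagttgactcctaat
Lif, chr11:4257318-4257567, plus strand, AP-1 letters: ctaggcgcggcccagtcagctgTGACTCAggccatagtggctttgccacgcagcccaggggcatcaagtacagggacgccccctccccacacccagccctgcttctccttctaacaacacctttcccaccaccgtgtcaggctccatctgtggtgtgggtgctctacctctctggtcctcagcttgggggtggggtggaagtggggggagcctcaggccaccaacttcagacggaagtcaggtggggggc
Socs3, chr11:117969367-117969616, minus strand, STAT letters: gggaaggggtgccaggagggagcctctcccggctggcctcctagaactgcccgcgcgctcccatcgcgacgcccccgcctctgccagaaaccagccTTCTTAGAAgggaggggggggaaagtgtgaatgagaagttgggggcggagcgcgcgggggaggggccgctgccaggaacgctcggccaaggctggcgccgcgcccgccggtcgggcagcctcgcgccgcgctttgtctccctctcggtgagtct
The AP-1 match began 249 bases before the start of Il6 and 228 bases before that of Lif, and the STAT match 154 bases before that of Socs3. Of 32851 windows of this length, 7.02% held the STAT letters and 6.75% the AP-1 letters. The windows of Il6st, Osmr, Lifr, Jak2, Stat3 and Socs1 held neither run of letters. Il6 and Socs3 fell in the cultured cells, and so did Il6st, Osmr and Stat3, whose windows held no match. Il6 and Lif were near or within background in both groups, and Lif did not pass the test. A match describes letters in a window and not binding, which was not measured.

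The ligand Il6, an inflammatory cytokine that muscle also releases, was faint in both groups. Its fresh values were 3.03, 3.37 and 3.63 on replicates 1 to 3, and its cultured values were 1.74, 2.28 and 1.39. All 3 cultured arrays were below all 3 fresh ones, but only 2 fresh arrays and no cultured array exceeded the background level. Il6 averaged 3.35 ± 0.30 (SD) before and 1.80 ± 0.45 after culture, a log2 fold change of -1.54 ± 0.25 (SE) and an adjusted p of 0.0137. Set against the cultured background level, the fresh mean stood only 0.12 higher (a bound of -0.12 on the log2 scale), so the size of the fall rests on values at or within background. The call was lost without fresh replicate 2 (adjusted p = 0.0687), fresh replicate 3 (adjusted p = 0.0717) or cultured replicate 3 (adjusted p = 0.0571).

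Lif encodes leukaemia inhibitory factor, a family member that acts on myoblasts. It measured 2.58, 3.03 and 3.26 in fresh cells and 2.84, 3.47 and 2.97 in cultured cells. The groups overlapped, and 1 array of each lay above background. Its log2 fold change was 0.14 ± 0.23 (SE), with a 95% confidence interval from -0.40 to 0.68 and an adjusted p of 0.816. A 2-fold fall of this probe set is outside that interval, but a transcript near background gives a compressed signal.

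Il6st, the shared signal-transducing chain gp130, was clearly above background in both groups. It was at 5.47, 6.21 and 5.96 on the fresh and at 4.32, 3.91 and 4.46 on the cultured arrays. The lowest fresh value exceeded the highest cultured value by about 1 log2 unit. The means were 5.88 ± 0.38 (SD) and 4.23 ± 0.29, a log2 fold change of -1.65 ± 0.23 (SE), or 3.14-fold lower in culture, with an adjusted p of 0.00677.

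Osmr, the chain that pairs with gp130 to bind oncostatin M, fell to within background. Its fresh values were 4.40, 5.64 and 5.41, and its cultured values were 2.34, 2.84 and 2.11. Every fresh array was above background and every cultured array was within it. The means of 5.15 ± 0.66 (SD) and 2.43 ± 0.37 gave a log2 fold change of -2.72 ± 0.34 (SE), 6.58-fold, with an adjusted p of 0.00384. Read as a bound against the cultured background level, the fall was 1.92 on the log2 scale (-1.92).

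Lifr, the chain that pairs with gp130 to bind LIF, was at 2.70, 3.22 and 2.58 in fresh and at 2.31, 2.26 and 2.28 in cultured cells. The groups did not overlap, yet only 1 fresh array exceeded background. The log2 fold change of -0.55 ± 0.19 (SE) did not pass, with an adjusted p of 0.172. Its fresh mean of 2.83 was within background.

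Jak2 encodes a kinase that many cytokine receptors use, gp130 among them. Its levels were 3.25, 3.64 and 4.15 on fresh arrays and 2.69, 2.82 and 2.80 on cultured arrays. All fresh values lay above background and all cultured values within it. The log2 fold change was -0.91 ± 0.22 (SE) with an adjusted p of 0.0699, so Jak2 did not pass. It passed without fresh replicate 1, at -1.12 and an adjusted p of 0.0313, after quantile normalization at 0.0283 and with cyclic loess at 0.0250.

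Stat3, the transcription factor at the end of this cascade, was at 6.01, 7.16 and 6.93 in fresh cells. In cultured cells it was at 4.57, 4.62 and 4.06. The groups stood well apart, and all 6 values were above background. Its means were 6.70 ± 0.61 (SD) and 4.42 ± 0.31, and its log2 fold change of -2.28 ± 0.31 (SE), 4.86-fold, had an adjusted p of 0.00573.

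**Figure D2:**
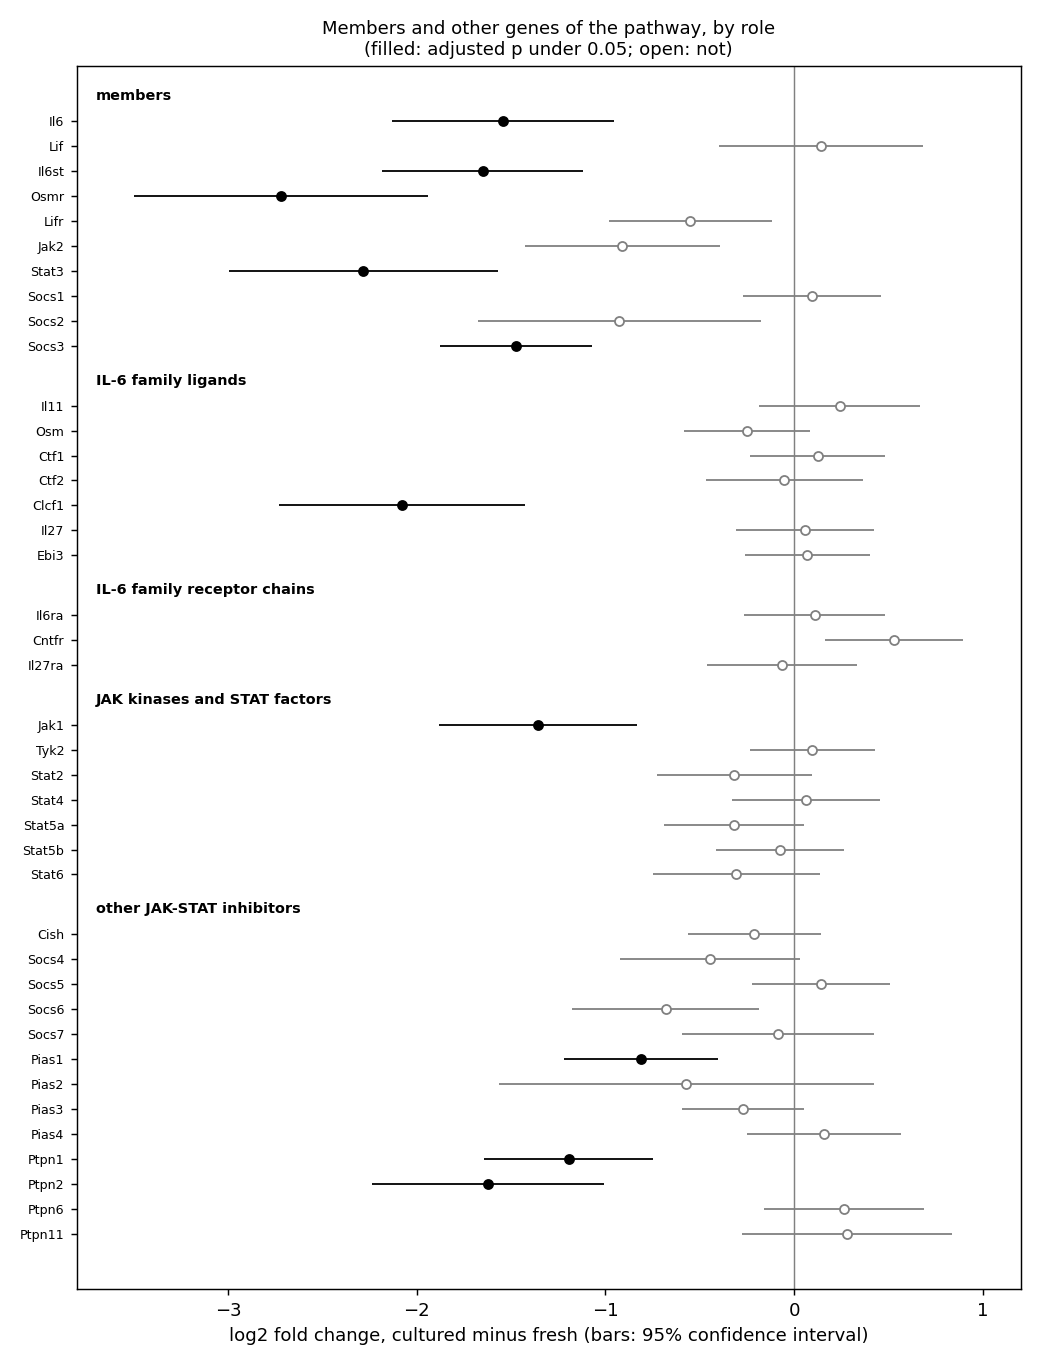
Log2 fold change, cultured minus fresh (x axis), of the 10 genes and of 30 other genes of the pathway grouped by role, with 95% confidence intervals as bars; filled points passed an adjusted p of 0.05 and open points did not. The filled points are Il6, Il6st, Osmr, Stat3 and Socs3 among the 10, and Clcf1, Jak1, Pias1, Ptpn1 and Ptpn2 among the others, and all lie to the left of 0.

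Of the 3 SOCS genes, which encode inhibitors that are switched on by cytokines, 1 passed the test. Socs3 measured 6.12, 6.63 and 6.24 on the fresh and 4.84, 4.72 and 5.01 on the cultured arrays. Its groups were more than 1 log2 unit apart at their nearest values, with all arrays above background. The means were 6.33 ± 0.27 (SD) and 4.86 ± 0.15, with a log2 fold change of -1.47 ± 0.17 (SE), 2.78-fold, and an adjusted p of 0.00308. A further probe set of Socs3 gave -1.70 ± 0.28 (SE) with an adjusted p of 0.0166 over all probe sets of a single gene.

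Socs1, which blocks JAK activity directly and is best known from interferon signalling, was at 5.18, 5.19 and 4.79 in fresh cells and at 5.12, 5.25 and 5.07 in cultured cells. The values overlapped and all were above background. The log2 fold change was 0.10 ± 0.16 (SE), with a 95% interval from -0.27 to 0.46 and an adjusted p of 0.815. The lower end of that interval is above the upper end of the interval of Socs3, which ran from -1.88 to -1.07; the difference between the genes was not itself tested.

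Socs2, the inhibitor best known for restraining growth hormone signalling, gave 6.01, 6.27 and 6.65 in fresh cells. Its cultured values were 6.07, 4.78 and 5.30. Cultured replicate 1 lay within the fresh range and the other cultured arrays below it. The log2 fold change of -0.93 ± 0.32 (SE) had an adjusted p of 0.185. Without cultured replicate 1 it was -1.27 with an adjusted p of 0.0128. A further probe set, at 5.90, 6.24 and 6.01 in fresh and 5.58, 5.70 and 5.41 in cultured cells, did not overlap between groups and gave -0.48 ± 0.15 (SE), with an adjusted p of 0.153. The probe sets thus differed in size and neither passed.

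Of the other IL-6 family ligands, 7 of 9 listed genes were measured. Clcf1, a cardiotrophin-like cytokine that signals through gp130, LIFR and CNTFR, was the only one to pass. It fell from 5.98, 6.24 and 6.04 on the fresh arrays to 4.60, 3.41 and 4.03 on the cultured arrays, with no overlap. Its log2 fold change was -2.08 ± 0.28 (SE), 4.22-fold, with an adjusted p of 0.00592. At an unadjusted p of 0.05, limma gave 1 lower and none higher here too. The remaining 6 (Il11, Osm, Ctf1, Ctf2, Il27 and Ebi3) lay between -0.25 and 0.24, and the median of the 7 was 0.06. Osm, the ligand of the OSMR chain, was at -0.25 ± 0.14 (SE), within background on every array.

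None of the 3 measured receptor chains outside the 10 genes passed limma's test; at an unadjusted p of 0.05, 1 was higher and none lower, where 8.58% of all genes were higher and 9.06% lower. Il6ra, the chain that binds IL-6 itself, averaged 3.92 ± 0.22 (SD) before and 4.03 ± 0.13 after culture, with a log2 fold change of 0.11 ± 0.16 (SE) with an adjusted p of 0.788. Cntfr, the ciliary neurotrophic factor chain, was at 0.53 ± 0.16 (SE) with an adjusted p of 0.125, and its cultured values did not overlap the fresh ones. The median of the 3 was 0.11.

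Among 7 other JAK and STAT genes, 1 fell and none rose, also at an unadjusted p of 0.05 in limma. Jak1, the main kinase partner of gp130, was at 5.68, 6.42 and 5.79 in fresh and at 4.87, 4.44 and 4.50 in cultured cells. Its log2 fold change was -1.36 ± 0.23 (SE) with an adjusted p of 0.0148. The call was lost without fresh replicate 3 (adjusted p = 0.0520) or cultured replicate 3 (adjusted p = 0.0818). The kinase Tyk2 and the other STAT genes lay between -0.32 and 0.10, so that of the STAT genes measured here Stat3 alone passed the test; Stat5a, at -0.32 ± 0.16 (SE), had an adjusted p of 0.359. The median of the 7 was -0.31.

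A list of 13 further inhibitors of the pathway had 3 lower and none higher in limma (4 and none at an unadjusted p of 0.05, where 9.06% of all genes were lower), with a median of -0.27. Ptpn2, a phosphatase that acts on JAK1 and STAT3, had a log2 fold change of -1.62 ± 0.27 (SE) and an adjusted p of 0.0137. A further probe set of Ptpn2 was within background on all arrays and gave 0.02 ± 0.13 (SE), and the mean of both gave -0.80 with an adjusted p of 0.0558. The related phosphatase Ptpn1, which acts on JAK2, was at -1.19 ± 0.19 (SE) with an adjusted p of 0.0132. Pias1, a SUMO ligase, was at -0.81 ± 0.18 (SE) with an adjusted p of 0.0457, and only 1 of its cultured values was above background. Leaving out cultured replicate 3, or 1 of fresh replicates 1 and 3, ended all 3 calls, with an adjusted p reaching 0.174. That of Pias1 was also lost without cultured replicate 2 (adjusted p = 0.0896). Cish and Socs4 to Socs7, the other genes of the SOCS family, did not pass, between -0.68 (Socs6, adjusted p = 0.143) and 0.14 (Socs5).

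Transcripts that STAT3 is known to act on, or that accompany its activity, were taken as a list of 22 genes. Of these, 8 fell and 1 rose, and 13 did not pass, with a median of -0.27. Of all genes, 3.37% passed as lower and 0.953% as higher. At an unadjusted p of 0.05 in limma, 10 of the 22 were lower and 4 higher. At that cutoff 9.06% of all genes were lower and 8.58% higher. This list too was drawn up with earlier results of these data known, so its shares are a description and not a test. The largest falls were in Fos (-6.03 ± 0.18, SE), Myc (-4.06 ± 0.32), Junb (-3.89 ± 0.20), Cebpd (-3.75 ± 0.18) and Cebpb (-2.96 ± 0.16), 5 transcription factor genes that many other signals also switch on. Cebpd, a factor of the acute-phase response, was at 7.92, 7.89 and 8.05 in fresh and at 4.54, 3.96 and 4.10 in cultured cells. Its groups lay more than 3 log2 units apart, with an adjusted p of 2.81e-05. Mcl1, a survival factor of the BCL2 family, fell by 2.88 ± 0.37 (SE), from 8.02, 8.47 and 8.33 to 6.26, 4.68 and 5.26. The remaining 2 were the kinase gene Pim1 (-0.95) and the lipopolysaccharide-binding protein gene Lbp (-0.98), whose calls were both lost without fresh replicate 3 or cultured replicate 3, and for Lbp also without fresh replicate 1. Only 1 cultured value of Lbp was above background.

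Some genes of that list pointed the other way. Bcl2l1, the gene of the survival protein BCL-XL and named here after its value was seen, rose by 0.82 ± 0.16 (SE), from 3.74, 3.90 and 3.82 to 4.87, 4.41 and 4.64, with an adjusted p of 0.0268. Leaving out cultured replicate 3 or a single fresh array ended its call, with an adjusted p reaching 0.114. Timp1, a metalloprotease inhibitor, and the cyclin gene Ccnd1 (also named after the values were seen) had log2 fold changes of 1.90 ± 0.48 (SE) and 1.23 ± 0.29, with adjusted p of 0.0767 and 0.0577. Both passed after quantile normalization, at adjusted p of 0.00110 and 0.000706, where 4 genes of the list rose in place of 1. The acute-phase genes Hp, Lcn2, Saa3, Lrg1 and Serpina3n lay between -0.22 and 0.29, and none passed. The other 6 genes that did not pass lay between -0.93 (Bcl6) and 0.45 (Pim3).

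**Figure D3:**
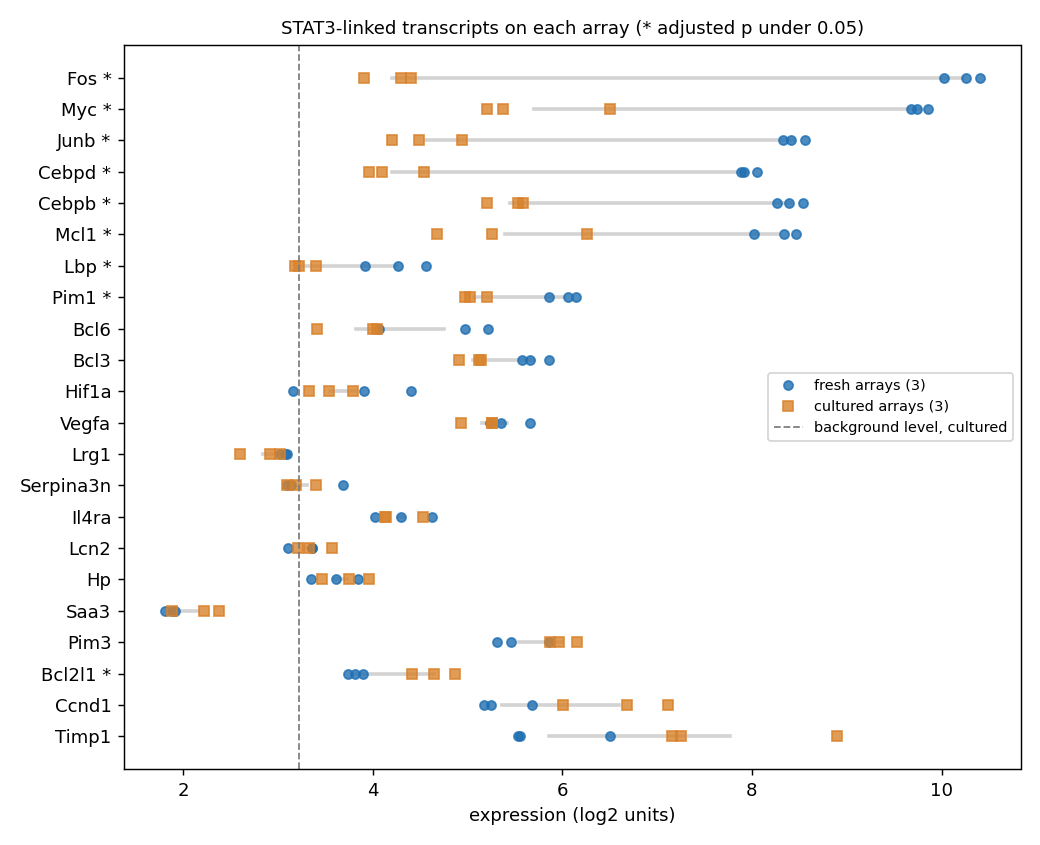
Log2 expression (x axis) of the 22 STAT3-linked transcripts on the 3 fresh arrays (blue circles) and the 3 cultured arrays (orange squares), ordered by fold change, with grey bars between the group means and the cultured background level of 3.23 as a dashed line; an asterisk marks an adjusted p under 0.05. The fresh points of Fos, Myc, Junb, Cebpd, Cebpb and Mcl1 lie far to the right of the cultured ones, and Bcl2l1 carries the only asterisk among genes that were higher in culture.

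The fresh arrays differed among themselves in these genes and in others. Fresh replicate 1 gave the lowest of the 3 fresh values for 8 of the 10 genes, all but Lifr and Socs1. Over all genes it was the lowest for 35.4%, and for 41.6% of the 10697 genes above background in fresh cells. The trait was not particular to the 10 genes. Among the satellite cell markers described below, fresh replicate 1 was the lowest fresh array for all but Sdc4. For the fibro-adipogenic marker Dcn it was the highest, at 8.53 against 7.78 and 5.86. Without fresh replicate 1 the log2 fold change of Osmr was -3.09 and that of Stat3 -2.63.

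Markers of the sorted cells and of others were read on the same arrays. Of 10 satellite cell markers all were above background in fresh and 9 in cultured cells, and 7 fell, among them Pax7 and Cxcr4. Of 7 fibro-adipogenic markers 4 fell. The mean log2 level of the 7 per array was 5.40 to 5.94 on fresh and 3.57 to 3.68 on cultured arrays. Dpt fell from 7.39, 7.24 and 7.68 to 2.58, 2.38 and 2.30, and Apod and the proteoglycan gene Dcn fell as well, while Pdgfra, the defining receptor, was at 3.61, 3.23 and 3.23 in fresh and 3.57, 3.67 and 3.64 in cultured cells. The part of such transcripts in the falls of Il6, Osmr, Il6st and Socs3 was not tested. The leukocyte list had no gene past limma's test (at an unadjusted p of 0.05, 1 lower and none higher). Its mean log2 level per array was 2.63 to 2.90 in fresh and 2.64 to 2.72 in cultured cells. Ptprc, the gene of CD45, was within background on every array. Of the 10 leukocyte markers, 3 had a fresh mean and 1 a cultured mean above background. Cd68 was at 3.97, 3.50 and 3.75 in fresh and 3.30, 3.06 and 3.05 in cultured cells, without overlap. S100a9 was above background on all 3 fresh arrays and Cd14 on 2. Of 8 endothelial markers Tek fell, and Pecam1, the gene of CD31, was within background throughout, while Cldn5, at 0.76 (adjusted p = 0.0945), did not overlap between groups. At an unadjusted p of 0.05, 1 of the 8 was lower and 1 higher, at summed levels of 23.4 to 23.8 in fresh and 24.2 to 24.8 in cultured cells. Pericyte, Schwann and erythroid lists had no gene past the test, with 1 pericyte gene lower and 1 higher and none of the others at an unadjusted p of 0.05. Fresh means were above background for 5 of 6 pericyte, 3 of 3 Schwann and 1 of 1 erythroid genes. In these bulk samples fewer cells of a type and less RNA per cell cannot be told apart.

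Mid-range genes were dimmer on some cultured arrays than on others. For the 1784 genes with a fresh mean from 5 to 7, the range that holds Il6st, Osmr, Stat3 and the 3 SOCS genes, the median difference from the fresh mean was 0.03, -0.66 and -0.38 on cultured replicates 1, 2 and 3. For the 480 genes with a mean above 7 over all arrays, it was 0.02, -1.47 and -1.03. After a further quantile normalization the log2 fold changes were -1.52 for Il6st, -2.63 for Osmr, -2.04 for Stat3 and -1.23 for Socs3, and all 4 passed. Of the bright STAT3-linked genes, Fos was then at -5.51, Myc at -3.55 and Mcl1 at -2.50, and all passed. On cultured replicate 1 both medians were near 0. There Il6st, Osmr, Stat3 and Socs3 were at 4.32, 2.34, 4.57 and 4.84, below all their fresh values. The kept probe set of Socs2, at 6.07 on that array, lay within its fresh range of 6.01 to 6.65. It was at 4.78 and 5.30 on cultured replicates 2 and 3. Socs1, at 5.12 on cultured replicate 1, also lay within its fresh range. The further probe set of Socs2 did not. At 5.58 on cultured replicate 1, it was below its fresh values of 5.90, 6.24 and 6.01. On cultured replicates 2 and 3 it was at 5.70 and 5.41. The part of array brightness in these differences was not tested. Of all 861 calls 22.1% were higher in culture, and 38.8% after quantile normalization.

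**Figure D4:**
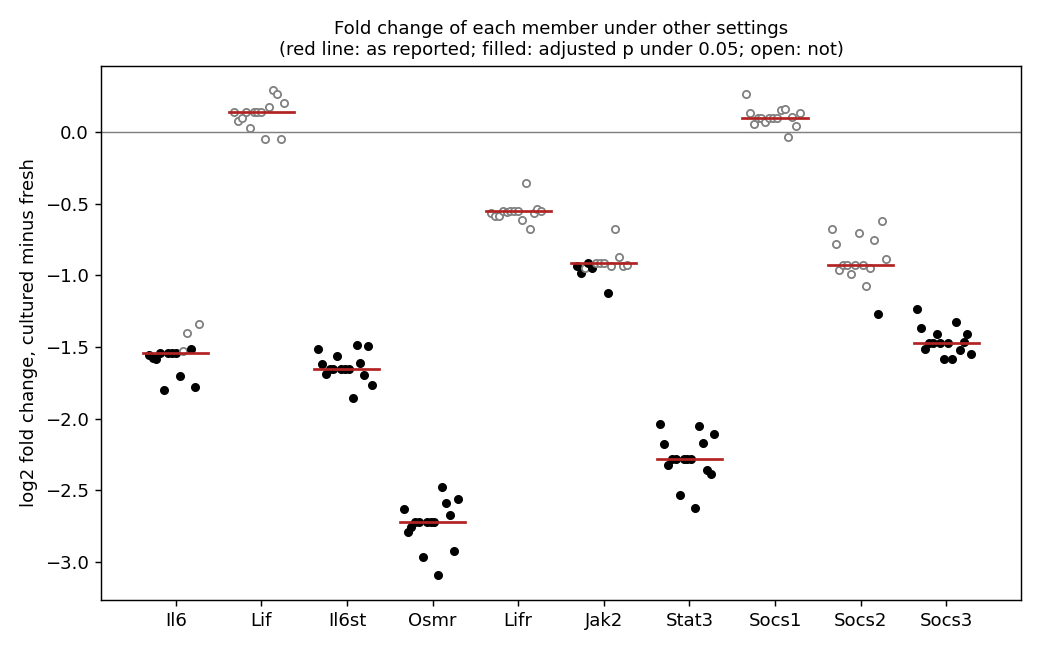
Log2 fold change, cultured minus fresh (y axis), of the 10 genes as reported (red lines) and under 14 or 15 other settings (points), filled where the adjusted p was under 0.05 and open where not. All points of Il6st, Osmr, Stat3 and Socs3 are filled and below 0, Il6 has 3 open points, and the points of Lif and Socs1 straddle 0.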

How the data were processed

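RNA from freshly sorted and cultured satellite cells was labelled with an Affymetrix whole-transcript biotin kit, per the labels' protocols. For 6 arrays the authors deposited log2 values of 35556 probe sets. Per the submitters' processing notes RMA and oligo were used, versions unstated. RMA compresses differences near background. No genome build is given in these sources, and the array number limits precision. Of the probe sets, 21789 were annotated to 1 gene, 1621 to several and 12146 to none listed. Symbols followed GRCm38.p6. The brightest probe set per gene was kept (19938 genes).

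Groups were compared with limma 3.58.1 in R 4.3.3 (lmFit, eBayes, group as the only term, no dim filter). Genes and lists were chosen with earlier results of these data known. The text names all 10 members. Of each pathway list it names up to 5 genes past the test with the largest fold change, or 2 where fewer than 2 passed. Mcl1, Pim1 and Lbp, the remaining STAT3-linked genes that fell, are named as well. Other pathway genes are marked, or given as ranges. Other settings covered normalization, dim genes, the prior, array weights, a replicate block, probe sets and leaving out each array. On simulated data with 200 of 19938 genes changed, this comparison recovered 31 of 50 at a log2 change of 1. It recovered 46 at 2, 47 at 3 and 49 at 4, with 11 false calls. The simulated noise was independent between genes, without the shift of whole arrays seen on cultured replicates 2 and 3. The number of false calls in the real data may therefore differ.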

Additional observations from a re-analysis of the deposited data

How the results depend on the processing

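Il6st, Osmr, Stat3 and Socs3 kept their direction and their call in all 15 other settings, and Il6 in 11 of the 14 that could test it. Between 4 and 6 of the 10 genes fell and none rose in every setting; leaving out genes dimmer than 3.23 on average removed Il6, Lif, Lifr and Jak2 from the test. Jak2 passed in 5 of 14 settings and Socs2 in 1 of 15. Leaving out 1 array gave Lif a range of -0.049 to 0.29, with a second sign change at -0.048, Socs1 a range of -0.034 to 0.16 and Il6ra a range of -0.0082 to 0.21. The arrays behind the negative values were fresh replicate 1 and cultured replicate 2 for Lif, fresh replicate 3 for Socs1 and fresh replicate 2 for Il6ra. The 671 lower genes became 1035 with cyclic loess and 1157 with array weights, and ranged from 380 (without cultured replicate 3) to 1278 (without cultured replicate 1), with 419 and 420 without fresh replicates 2 and 3. The 190 higher genes became 586 after quantile normalization, 457 with cyclic loess, 585 with array weights and 101 with a replicate block, and ranged from 51 (without fresh replicate 3) to 279 (without cultured replicate 2), with 88, 59 and 68 without fresh replicate 1, fresh replicate 2 and cultured replicate 3. In the STAT3-linked list the count of higher genes was 4 after quantile normalization, 3 with cyclic loess, 2 without dim genes, 3 with array weights and 0 to 3 when 1 array was left out. Leaving out 1 array gave 0 to 1 lower JAK and STAT genes and 0 to 3 lower further inhibitors. With dim genes left out fewer genes were tested; for the other settings the cause was not tested. Pim1 missed the threshold with a trended and robust prior, at an adjusted p of 0.0513, and Pias1 with probe sets kept apart, at 0.0523. The replicate block left 561 lower genes and the same 5 of the 10 genes as lower, and it left Pias1 at an adjusted p of 0.0939, Lbp at 0.0767 and Bcl2l1 at 0.0834. Same-numbered arrays did not deviate together, at correlations of -0.02, -0.06 and 0.05 over genes above background, and not every array correlated best with its own number. Signal near background limits the values of Il6, Lif, Lifr and Jak2, and those of Osmr, Pias1 and Lbp in cultured cells.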
